A study of Mus musculus with 4 samples.

Results

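The genes described here build the carriers that move newly made proteins between the endoplasmic reticulum (ER) and the Golgi apparatus. They comprise 42 of the 22287 genes in the mRNA table, taken by symbol: 6 genes of the COPII inner coat, 7 of the COPII outer coat, its GTPase and its scaffold, 5 of the ER translocon, 11 of the COPI coat and its GTPase, 10 cargo receptors and 3 SNAREs. The measurements come from N2a, a mouse neuroblastoma cell line whose labels give the strain C57BL/6. One library was made from N2a cells grown in MEM medium with 300 µM manganese for 48 h (Mn-treated), and 1 from N2a cells without manganese (untreated). Both were total RNA libraries depleted of ribosomal RNA, and both belong to a series of 4 libraries. Which library was treated is given only by the titles, because every sample carries 1 and the same treatment note.

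Proteins with a signal sequence enter the ER through the Sec61 channel. COPII then forms buds at ER exit sites: the GTPase SAR1 recruits the SEC23 and SEC24 heterodimer, SEC24 binds cargo, and a cage of SEC13 and SEC31 closes the vesicle. COPI, recruited by the GTPase ARF1, carries escaped ER proteins and empty cargo receptors back from the Golgi, and SNARE proteins fuse the carriers with their target membranes. N2a cells are widely used as neuron-like cells, and secretory traffic supplies the membrane and secreted proteins of growing neurites.

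The Mn-treated library held 14606961 reads assigned to mRNA genes and the untreated library 13972437. Of the neuron and sympathoadrenal markers 11 of 14 were measured, with 43682 reads summed in the Mn-treated library and 41704 in the untreated library, of which Tubb3 gave 33715 in the Mn-treated library and 33400 in the untreated library, whereas Nefl and Nefm had 0 reads in both. Gap43 (2.12-fold), Th (1.88-fold) and Map2 (1.64-fold) were higher in the Mn-treated library, and the other measured ones were within 1.5-fold. Of all measured genes 21.6% were at least 1.5-fold higher there. Markers of other cell types summed to 422 reads in the Mn-treated library and 302 in the untreated library (3 of 7 measured). Most came from the oligodendrocyte gene Mbp (309 reads in the Mn-treated library, 189 in the untreated library), which was also past 1.5-fold (1.56-fold). The leukocyte gene Ptprc, the epithelial gene Epcam and the microglial gene Aif1 had 0 reads in both. The part of either list in the ratios was not tested. In bulk RNA, fewer cells of a type and less RNA per cell cannot be told apart. With 1 library per condition no ratio has a replicate check, and no test between conditions was made. Each ratio is the share of reads in the Mn-treated library over that in the untreated library, with an exact 95% interval that covers counting error only.

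As a group the 42 genes took nearly the same part of the RNA in both libraries: 0.498% of reads in the Mn-treated library and 0.490% in the untreated library, and a summed FPKM (a level corrected for gene length and library size) of 1298 in the Mn-treated library and 1300 in the untreated library. All 42 had at least 20 reads over both libraries and so counted as measured. At a threshold of 1.5-fold, 6 genes were higher in the Mn-treated library (14.3%), against 21.6% of the 11872 measured genes, and 1 was lower (2.38%), against 5.97% of measured genes. The 6 were Sec62, Sec63, Mia3, Sec24a, Copb2 and Sec23a, and the 1 was Sec24d. At 2-fold, Sec62 alone was higher (7.26% of measured genes) and Sec24d alone lower (1.7% of measured genes). The median log2 ratio of the members was 0.13, and that of all measured genes was 0.18. Thus 18 members lay above the median gene and 24 below it. With a scale that sets the median gene to 0, a shift of 0.18 on the log2 scale, 4 members passed 1.5-fold upwards (9.52%, against 13.4% of measured genes) and 3 downwards (7.14%, against 11.3% of measured genes). On that scale 8 members near 0 changed sign (Sec24c, Sec22b, Sec61b, Sar1a, Copg1, Gbf1, Tmed2 and Gosr2). The counts of 10 of the 42 members were estimates that are not whole, as were those of 2734 of the 11872 measured genes. Sec24d and 3 of the 6 higher genes (Sec63, Mia3 and Sec24a) rest on such counts.

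**Figure D1:**
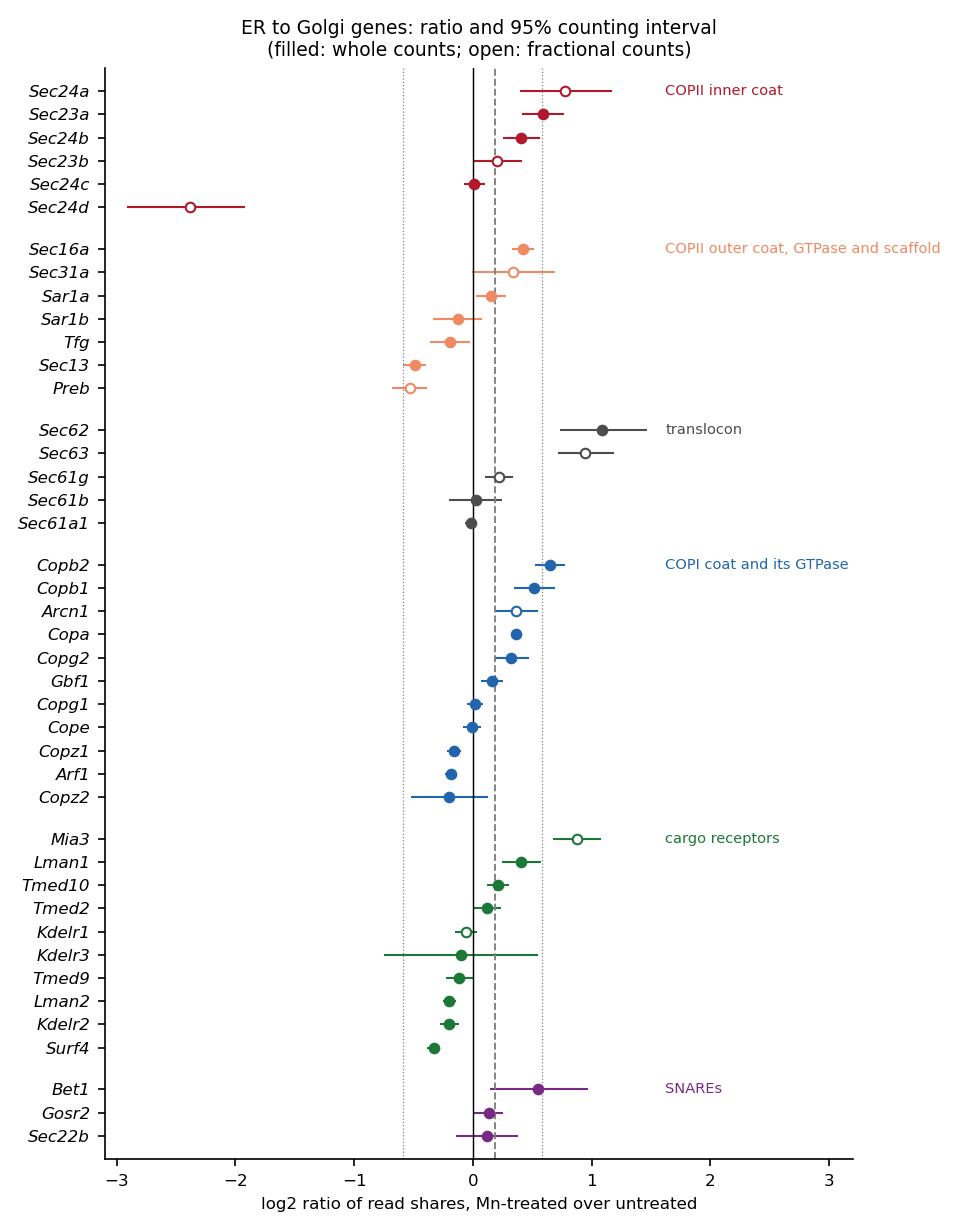
Log2 ratio of read shares, Mn-treated over untreated, for the 42 genes grouped by role; bars are exact 95% counting intervals, filled circles are whole counts and open circles fractional counts. The solid line is 0, the dashed line the median of all measured genes (0.18) and the dotted lines 1.5-fold; Sec24d lies at -2.39, far to the left of every other member, and Sec62 at 1.09 lies farthest right.

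The COPII inner coat held both the lowest member of all and 2 of the 6 higher ones (33.3% of its genes, against 21.6% of measured genes). It consists of SEC23, which activates the GTPase of SAR1, and SEC24, which reads sorting signals on cargo. Sec24d had 42 reads (0.43 FPKM) in the Mn-treated library, against 212 reads (4.10 FPKM) in the untreated library. Its read share was 5.23-fold lower in the Mn-treated library (log2 ratio -2.39, interval -2.91 to -1.92). Its close relative Sec24c, which like Sec24d belongs to the subgroup of SEC24 proteins distinct from SEC24A and SEC24B, had 2255 reads (21.99 FPKM) in the Mn-treated library and 2139 reads (21.4 FPKM) in the untreated library. That is a log2 ratio of 0.01 (interval -0.07 to 0.10), so the most abundant SEC24 gene had nearly the same read share in both libraries.

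Of the other subgroup, Sec24a had 160 reads (1.81 FPKM) in the Mn-treated library and 89 reads (1.23 FPKM) in the untreated library, a log2 ratio of 0.78 (interval 0.40 to 1.17). Sec24b had 816 reads (7.66 FPKM) in the Mn-treated library and 589 reads (5.53 FPKM) in the untreated library, a log2 ratio of 0.41 (interval 0.25 to 0.56). Sec24a was past 1.5-fold and Sec24b was not, and the difference between their log2 ratios was 0.38 with an interval of -0.04 to 0.80, which includes 0. The counts of Sec24a, Sec24d and Sec23b were fractional.

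Sec23a had 663 reads (6.75 FPKM) in the Mn-treated library and 421 reads (4.29 FPKM) in the untreated library, a log2 ratio of 0.59 (interval 0.41 to 0.77). Sec23b, mutated in a human congenital dyserythropoietic anaemia, had 440 reads (6.6 FPKM) in the Mn-treated library and 365 reads (6.55 FPKM) in the untreated library, a log2 ratio of 0.21 (interval 0.002 to 0.41). The log2 ratio of Sec23a exceeded that of Sec23b by 0.39 (interval 0.11 to 0.66). By FPKM the order of the paralogs was reversed between libraries: Sec23a was slightly above Sec23b in the Mn-treated library and below it in the untreated library.

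Shares within each family do not depend on how the libraries are scaled. Sec23a made up 60.1% of the Sec23 reads in the Mn-treated library (interval 57.1 to 63.0) and 53.6% in the untreated library (interval 50.004 to 57.1). Sec24d made up 1.28% of the Sec24 reads in the Mn-treated library (interval 0.93 to 1.73) and 7.0% in the untreated library (interval 6.12 to 7.97). Sec24b made up 24.9% in the Mn-treated library (interval 23.5 to 26.5) and 19.4% in the untreated library (interval 18.05 to 20.9). The share of Sec24d was thus lower in the Mn-treated library, and those of Sec23a and Sec24b higher. Sec24a held 4.89% in the Mn-treated library (interval 4.18 to 5.68) and 2.94% in the untreated library (interval 2.37 to 3.60). Sec24c held 68.9% in the Mn-treated library (interval 67.3 to 70.5) and 70.6% in the untreated library (interval 69.0 to 72.2). There were 53.7 Sec24c reads for each Sec24d read in the Mn-treated library, against 10.1 in the untreated library. By FPKM, which corrects for length, the differences were larger for some: Sec23a held 50.6% of its family in the Mn-treated library and 39.6% in the untreated library, and Sec24d 1.35% in the Mn-treated library and 12.7% in the untreated library. The small difference of Sec24c had the other sign by FPKM, with 69.0% in the Mn-treated library and 66.3% in the untreated library.

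Summed over its 4 paralogs the Sec24 family had 3273 reads in the Mn-treated library and 3029 in the untreated library, a log2 ratio of 0.05. The family total therefore barely differed while its make-up did. The Sec23 family had 1103 reads in the Mn-treated library and 786 in the untreated library, a log2 ratio of 0.42. Over all 6 pairs of Sec24 paralogs, the difference in log2 ratio ran up to 3.17 (interval 2.55 to 3.82) between Sec24a and Sec24d. It was 2.80 (interval 2.29 to 3.34) between Sec24b and Sec24d, and 2.41 (interval 1.92 to 2.93) between Sec24c and Sec24d. Among the other Sec24 pairs it was 0.77 (interval 0.38 to 1.17) for Sec24a over Sec24c and 0.39 (interval 0.22 to 0.57) for Sec24b over Sec24c. Of the 13 pairs of paralogs compared in all families, the 3 with Sec24d thus stood well apart in size from the others.

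**Figure D2:**
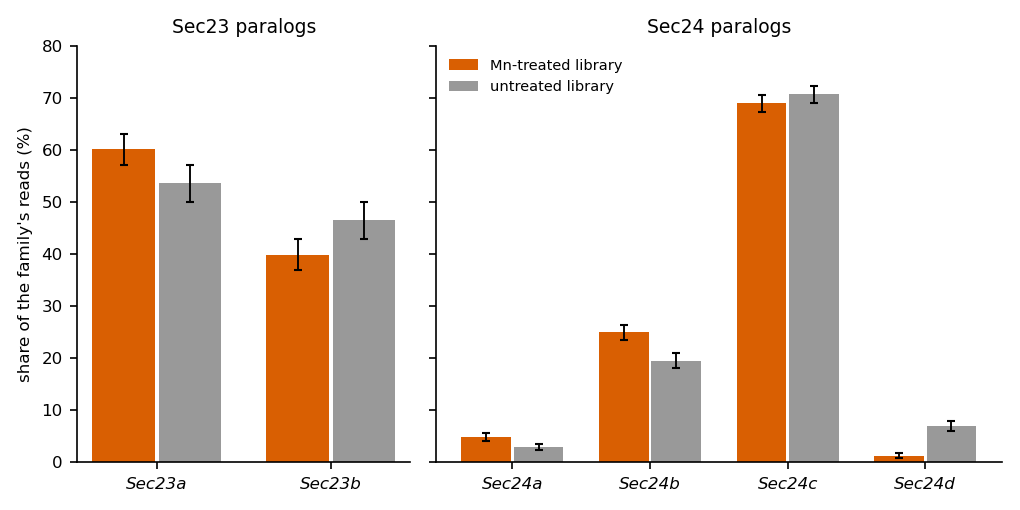
Share of the reads of each family (%) taken by each Sec23 paralog (left) and each Sec24 paralog (right), Mn-treated library in orange and untreated library in grey; bars start at 0 and error bars are exact 95% counting intervals. Sec24d stands at 1.28% in the Mn-treated library against 7.0% in the untreated library, while Sec24c stands at 68.9% in the Mn-treated library and 70.6% in the untreated library.

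The promoters of the SEC24 genes are shown because these paralogs differed most from each other. The lines give the 250 bases before 1 annotated transcript start, read on the gene's strand, from RefSeq on GRCm38.p6; capitals mark the letters TGACGTGG (an unfolded protein response element, UPRE, bound by XBP1 and related factors) or the shorter TGACGT, on either strand. The stretches are chr11:51756835-51757084 (minus strand) for Sec24a, chr3:130060908-130061157 (minus strand) for Sec24b, chr14:20674071-20674320 (plus strand) for Sec24c and chr3:123267246-123267495 (plus strand) for Sec24d.
Sec24a: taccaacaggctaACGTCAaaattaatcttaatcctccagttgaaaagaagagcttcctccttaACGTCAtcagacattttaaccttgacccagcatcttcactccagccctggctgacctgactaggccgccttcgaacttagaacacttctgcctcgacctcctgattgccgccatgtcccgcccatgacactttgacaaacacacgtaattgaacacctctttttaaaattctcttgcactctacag
Sec24b: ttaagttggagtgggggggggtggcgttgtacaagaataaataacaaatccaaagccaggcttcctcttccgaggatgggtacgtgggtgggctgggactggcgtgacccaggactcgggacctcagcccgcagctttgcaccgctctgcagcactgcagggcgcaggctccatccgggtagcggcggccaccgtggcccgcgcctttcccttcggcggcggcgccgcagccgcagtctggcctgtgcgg
Sec24c: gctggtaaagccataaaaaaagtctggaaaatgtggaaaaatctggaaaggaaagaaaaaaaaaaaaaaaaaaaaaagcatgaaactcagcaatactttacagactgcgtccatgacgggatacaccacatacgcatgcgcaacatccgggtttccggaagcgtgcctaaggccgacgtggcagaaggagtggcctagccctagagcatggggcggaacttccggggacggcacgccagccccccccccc
Sec24d: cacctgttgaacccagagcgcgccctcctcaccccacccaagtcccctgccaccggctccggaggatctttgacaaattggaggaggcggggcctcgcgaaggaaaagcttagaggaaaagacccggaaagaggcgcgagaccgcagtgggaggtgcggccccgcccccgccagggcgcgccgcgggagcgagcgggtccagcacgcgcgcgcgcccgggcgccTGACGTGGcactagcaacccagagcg
Sec24d held the full UPRE letters 26 bases before the start. Sec24a held TGACGT on the opposite strand at 2 places farther upstream, and the stretches of Sec24b and Sec24c held neither. Sec24c held TGACGT 30 bases after the start, beyond the stretch shown. A match of letters is a description of the sequence and does not show that a factor binds there.

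The rest of the COPII machinery held no gene past 1.5-fold, against 21.6% higher and 5.97% lower among measured genes. Its median log2 ratio was -0.13, against 0.18 for all measured genes. Preb, the exchange factor that loads SAR1 with GTP at the ER, had 643 reads (12.2 FPKM) in the Mn-treated library and 890 reads (16.2 FPKM) in the untreated library, a log2 ratio of -0.53 (interval -0.68 to -0.39) from fractional counts. Sec13, a subunit of the outer cage that also serves in the nuclear pore, had 1517 reads (45.4 FPKM) in the Mn-treated library and 2035 reads (63.0 FPKM) in the untreated library, a log2 ratio of -0.49 (interval -0.58 to -0.39). These were the lowest members after Sec24d, and both passed 1.5-fold when the median gene was set to 0 (-0.72 for Preb and -0.67 for Sec13).

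Sec31a, the partner of SEC13 in the cage, had 163 reads in the Mn-treated library and 123 in the untreated library, a log2 ratio of 0.34 (interval -0.0045 to 0.69) from fractional counts. Sec16a, the scaffold of ER exit sites, had 2154 reads in the Mn-treated library and 1540 in the untreated library, a log2 ratio of 0.42 (interval 0.33 to 0.52). Sec13 thus lay below 0 and Sec16a above it, while the interval of Sec31a just included 0. Tfg, which organises exit sites, had 537 reads in the Mn-treated library and 587 in the untreated library, a log2 ratio of -0.19. The GTPase genes Sar1a and Sar1b had log2 ratios of 0.15 and -0.13, with 1082 and 374 reads in the Mn-treated library against 930 and 391 in the untreated library. Sar1a made up 74.3% of the Sar1 reads in the Mn-treated library and 70.4% in the untreated library.

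The translocon divided into a core that was within 1.5-fold and a pair of accessory genes that were higher in the Mn-treated library. The pair made up 40.0% of its 5 genes, against 21.6% of measured genes. Sec61a1, a gene of the channel itself, had 7118 reads (91.3 FPKM) in the Mn-treated library and 6896 reads (91.1 FPKM) in the untreated library, a log2 ratio of -0.02 (interval -0.07 to 0.03). Sec61a2, which is not a member, had 763 reads in the Mn-treated library and 491 in the untreated library. That is a log2 ratio of 0.57 (interval 0.41 to 0.74), within 1.5-fold. The small subunits Sec61b and Sec61g had log2 ratios of 0.02 and 0.22, with 340 and 1255 reads in the Mn-treated library against 320 and 1030 in the untreated library. SEC62 and SEC63 are the membrane proteins that assist post-translational entry of precursors, and SEC62 also acts as a receptor for turnover of ER membrane. Sec62 had 205 reads (4.50 FPKM) in the Mn-treated library and 92 reads (1.96 FPKM) in the untreated library, a log2 ratio of 1.09 (interval 0.73 to 1.46). Sec63 had 460 reads (5.0 FPKM) in the Mn-treated library and 228 reads (1.58 FPKM) in the untreated library, a log2 ratio of 0.95 (interval 0.72 to 1.18) from fractional counts. By FPKM both accessory genes stood far below the 3 core genes among the members in each library.

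**Figure D3:**
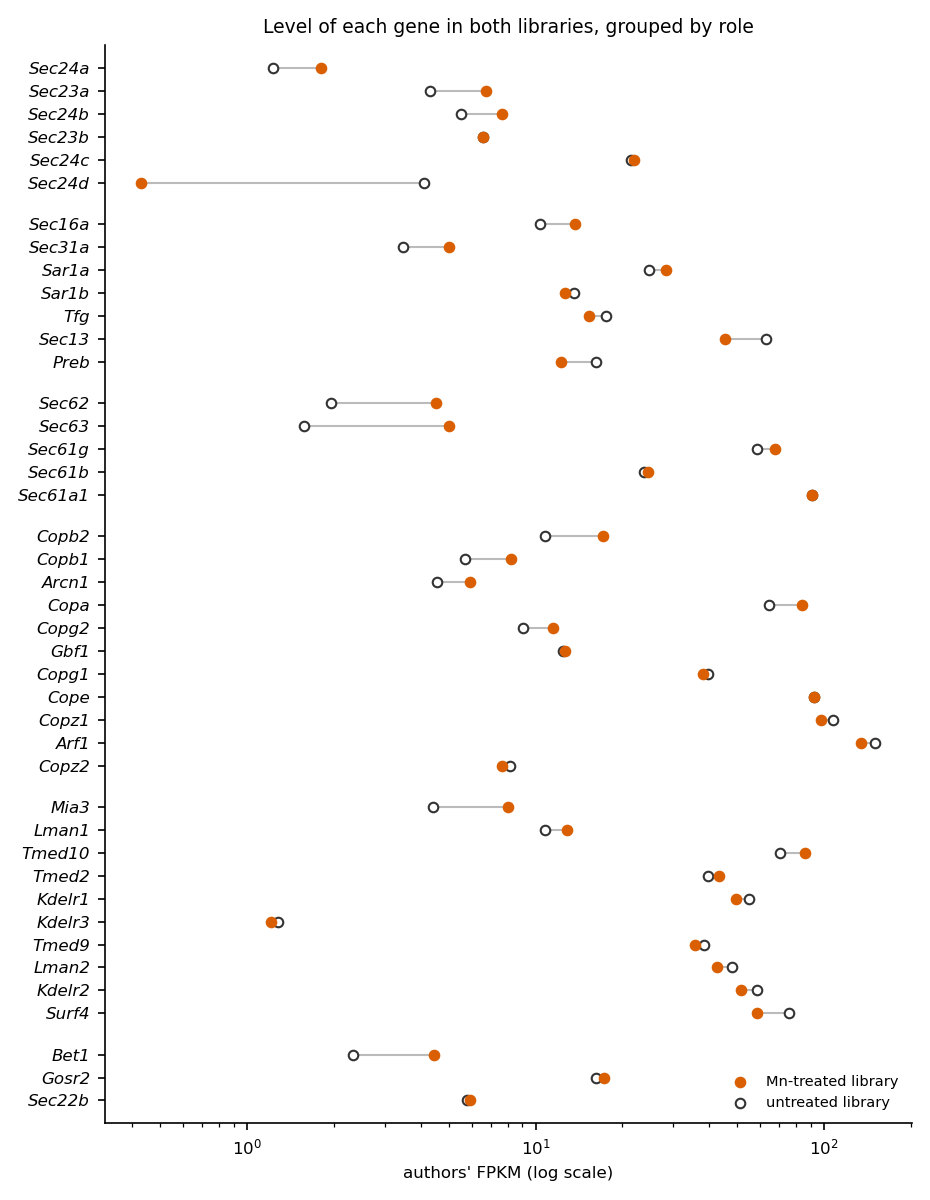
Authors' FPKM (log axis) of the 42 genes in the Mn-treated library (orange) and the untreated library (open circles), grouped by role in the same order as the plot of ratios. Levels span more than 100-fold; Sec24d at 0.43 FPKM is the lowest point in the Mn-treated library, while it lay at 4.10 FPKM in the untreated library.

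Of the 11 COPI genes only Copb2 passed 1.5-fold upwards (9.09%, against 21.6% of measured genes) and 0 passed it downwards (5.97% of measured genes). With the median gene set to 0 none did, against 13.4% upwards and 11.3% downwards of measured genes. The alpha, beta, beta prime and delta subunit genes had log2 ratios of 0.37 to 0.65, and the epsilon and zeta genes and Arf1 had ratios at or below 0. Coatomer, the COPI coat complex, consists of an outer part (alpha, beta prime and epsilon) and an inner part (beta, gamma, delta and zeta). Its 9 subunit genes summed to 1.13 times the read share in the Mn-treated library. The ratio of the median measured gene was also 1.13. The subunit genes had a median log2 ratio of 0.32 (0.14 with the median gene set to 0). Copb2, which encodes beta prime, had 1289 reads (17.1 FPKM) in the Mn-treated library and 787 reads (10.8 FPKM) in the untreated library, a log2 ratio of 0.65 (interval 0.52 to 0.78), and was past 1.5-fold. Copb1, which encodes beta, had 680 reads in the Mn-treated library and 454 in the untreated library, a log2 ratio of 0.52 (interval 0.35 to 0.69). Copa, which encodes alpha, had 9588 reads (84.1 FPKM) in the Mn-treated library and 7114 reads (64.6 FPKM) in the untreated library, a log2 ratio of 0.37 (interval 0.32 to 0.41). The log2 ratio of delta (Arcn1) was 0.37 with 596 reads in the Mn-treated library and 442 in the untreated library, from fractional counts. Of the 9 coatomer genes 6 had ratios above 0 and 3 below it (33.3%), near the 35.2% of measured genes below 0.

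The remaining coatomer genes were closer to 0. Cope, which encodes epsilon, had 2824 reads in the Mn-treated library and 2718 in the untreated library, a log2 ratio of -0.01. Copg1 and Copg2, the gamma paralogs, had log2 ratios of 0.02 and 0.32, and Copg2 held 19.2% of gamma reads in the Mn-treated library against 16.1% in the untreated library. The difference in log2 ratio of Copg1 from Copg2 was -0.31 (interval -0.47 to -0.15). The zeta paralogs differed little from each other: Copz2 held 3.67% of zeta reads in the Mn-treated library and 3.77% in the untreated library, and Copz1 had a log2 ratio of -0.16 (interval -0.22 to -0.10). Arf1, the GTPase that brings coatomer to the membrane, was the gene with the highest FPKM of all members in both libraries, with 135 in the Mn-treated library and 151 in the untreated library. Its log2 ratio was -0.18 (interval -0.23 to -0.13). Gbf1, the exchange factor of ARF1 at the early Golgi, had 1946 reads in the Mn-treated library and 1666 in the untreated library, a log2 ratio of 0.16.

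Of the 10 cargo receptors 1 was higher by 1.5-fold and 0 were lower, with a median log2 ratio of -0.08. Ratios were below 0 for 6 of the 10, against 35.2% of measured genes, and for Kdelr1 and Kdelr3 the interval included 0. The higher gene was Mia3, which encodes TANGO1, the ER exit site protein needed for export of bulky cargo such as collagen. Mia3 had 590 reads (8.02 FPKM) in the Mn-treated library and 308 reads (4.40 FPKM) in the untreated library, a log2 ratio of 0.87 (interval 0.67 to 1.08) from fractional counts. Surf4, a receptor for soluble secreted proteins, had 4478 reads (58.6 FPKM) in the Mn-treated library and 5392 reads (75.7 FPKM) in the untreated library, a log2 ratio of -0.33 (interval -0.39 to -0.27). The lectin genes Lman1, a receptor for glycoproteins such as clotting factors, and Lman2 had log2 ratios of 0.41 (interval 0.25 to 0.57) and -0.20 (interval -0.26 to -0.14), so these receptors had ratios of opposite sign. Lman1 had 763 reads in the Mn-treated library and 550 in the untreated library, and Lman2 had 4522 in the Mn-treated library and 4960 in the untreated library.

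The KDEL receptors return ER chaperones that have escaped to the Golgi. Kdelr1, Kdelr2 and Kdelr3 had log2 ratios of -0.06, -0.20 and -0.10, and their shares of family reads were 44.0%, 55.1% and 0.99% in the Mn-treated library against 41.6%, 57.4% and 0.97% in the untreated library. Kdelr3 rested on 42 reads in the Mn-treated library and 43 in the untreated library, and its interval of -0.75 to 0.55 left a 1.5-fold difference in the lower direction within its range. The p24 family genes Tmed9, Tmed2 and Tmed10, whose products help sort cargo with a glycosylphosphatidylinositol anchor, had log2 ratios of -0.11, 0.12 and 0.21. Tmed10 had 2067 reads in the Mn-treated library and 1704 in the untreated library.

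The 3 SNARE genes had positive log2 ratios within 1.5-fold, of which only that of Bet1 stayed positive with the median gene set to 0. Bet1 had 129 reads (4.43 FPKM) in the Mn-treated library and 84 reads (2.32 FPKM) in the untreated library, a log2 ratio of 0.55 (interval 0.15 to 0.97). Sec22b and Gosr2, partners in fusion of carriers at the Golgi and the intermediate compartment, had log2 ratios of 0.12 and 0.13, with 269 and 1178 reads in the Mn-treated library against 237 and 1027 in the untreated library. Close to the threshold of 1.5-fold, Sec23a (1.51-fold) and Copb2 (1.57-fold) lay just past it, and Bet1 (1.47-fold) and Copb1 (1.43-fold) did not reach it.

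The FPKM values the authors computed gave the same picture for most members, and larger differences for a few. In the authors' deposited table the log2 fold change was -3.25 for Sec24d, 1.66 for Sec63 and 0.93 for Bet1. The corresponding read-based values are -2.39, 0.95 and 0.55. These were the 3 members whose number of reads per FPKM unit, which stands for the transcript length the authors used, moved by over 1.2-fold between libraries relative to the median gene. For Sec24d it was 96.7 in the Mn-treated library and 51.7 in the untreated library, for Sec63 91.9 in the Mn-treated library and 144 in the untreated library, and for Bet1 29.1 in the Mn-treated library and 36.2 in the untreated library. Over all genes 15.3% moved as much. Whether other transcript forms were counted in each library was not tested. The sign differed between reads and FPKM for Sec61a1 and Copg1, both within 0.06 of 0.

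**Figure D4:**
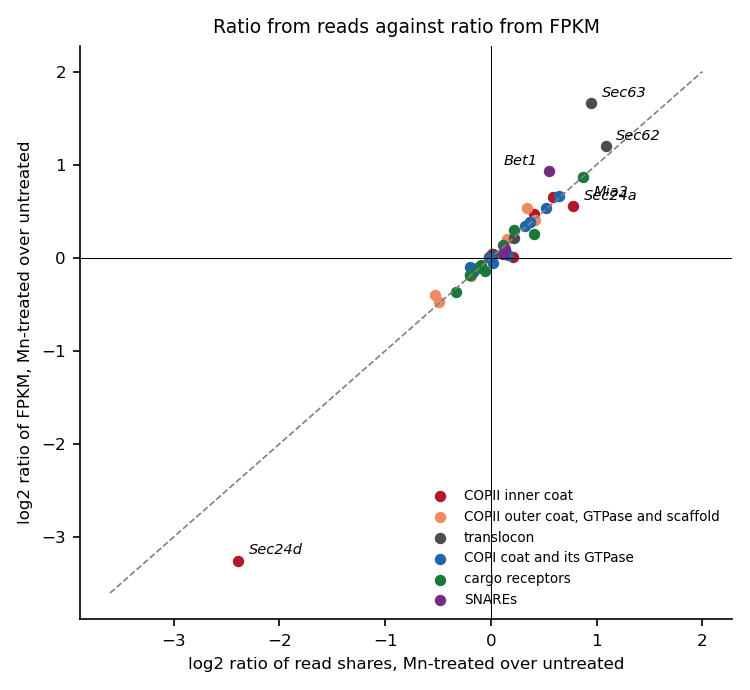
Log2 ratio of FPKM (vertical) against log2 ratio of read shares (horizontal), both Mn-treated over untreated, for the 42 genes coloured by role; the dashed line marks equal values. Most genes lie on the line, whereas Sec24d (-2.39 by reads, -3.25 by FPKM) lies below it and Sec63 (0.95 by reads, 1.66 by FPKM) and Bet1 above it.

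Reads per FPKM unit also varied with the ratio across genes. The 20 members above the median of all genes in reads per FPKM had a median log2 ratio of 0.34, with 5 higher and 1 lower past 1.5-fold (25.0% and 5.0%, against 26.6% and 3.03% of all genes there). The 22 members below it had a median of -0.03, with 1 higher and 0 lower (4.55% and 0%, against 15.0% and 8.44% of all genes there). Over all genes the corresponding medians were 0.29 and 0.05, so genes with more reads per FPKM unit had higher ratios in the whole table too. Across genes, which are not independent replicates and share the same pair of libraries, Spearman's rho between the measures was 0.35 over the 42 members and 0.28 over 11681 genes. The part of this in the members' ratios was not tested.

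Overlap with neighbouring genes bears on some counts, because the sources used here do not say that strand was used in counting. In the RefSeq annotation the span of Copa overlaps Ncstn, that of Copg2 overlaps Mest, that of Surf4 overlaps Surf2 and Stkld1, and that of Kdelr3 overlaps Ddx17, all protein-coding. Reads in the shared stretches cannot be told apart. Among the 10 members with fractional counts 4 overlapped another annotated gene, as did 10 of the 32 with whole counts, and Sec24d, Sec63, Sec31a, Arcn1, Kdelr1 and Sec61g had no overlapping gene there.

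The promoters of the members were searched for short elements known from ER stress and cyclic AMP responses. RefSeq windows of 300 bases, from 250 before to 50 after a start, were matched for 37 of the 42 members. TGACGTGG on either strand was found in 7 of the 37 (18.9%), against 98 of 9317 measured mRNA genes with a window (1.05%) and 193 of all 27025 genes (0.714%). In a wider list of genes of the same pathway it was found in 3 of 67 (4.48%: Scfd1, Sec16b and Stx5a). The shorter TGACGT, which lies inside both TGACGTGG and the cyclic AMP response element TGACGTCA, was found in 16 of 37 members (43.2%) and in 13.7% of measured mRNA genes. TGACGTCA was found in 2 members, Cope and Gosr2 (5.41%), and in 3.81% of measured mRNA genes. The endoplasmic reticulum stress elements ERSE and ERSE-II were found in 0 of 37 members, and in 0.193% and 0.086% of measured mRNA genes. The median GC content of the windows was 58.0% for members and 52.7% for all genes.

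The 7 sites are shown with 10 bases on each side, because the counts above rest on them. Capitals mark TGACGTGG or its reverse complement, and each line runs 5′ to 3′ on the gene's strand in GRCm38.p6. The stretches are chr3:123267460-123267487 (plus strand) for Sec24d, chr12:59011994-59012021 (minus strand) for Sec23a, chr7:114254691-114254718 (minus strand) for Copb1, chr9:98563714-98563741 (plus strand) for Copb2, chr11:59228229-59228256 (minus strand) for Arf1, chr19:46152536-46152563 (plus strand) for Gbf1 and chr15:79516368-79516395 (plus strand) for Kdelr3.
Sec24d: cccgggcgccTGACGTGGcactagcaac
Sec23a: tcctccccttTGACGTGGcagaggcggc
Copb1: ccgcccccttCCACGTCAgccaaggact
Copb2: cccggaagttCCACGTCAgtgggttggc
Arf1: cggcaggcgcTGACGTGGctgccgtcag
Gbf1: aggctagttaCCACGTCAgtgagctgac
Kdelr3: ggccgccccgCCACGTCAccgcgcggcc
All 7 lay between 30 bases before and 22 bases after 1 annotated start, and the Arf1 site lay 84 bases before its other annotated start. The log2 ratios of these genes ran from -2.39 for Sec24d to 0.65 for Copb2, with 4 above and 3 below 0 and a median of 0.16. The 30 members whose window lacked the letters had a median of 0.13, and genes that carry the letters lay on both sides of 0.

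**Figure D5:**
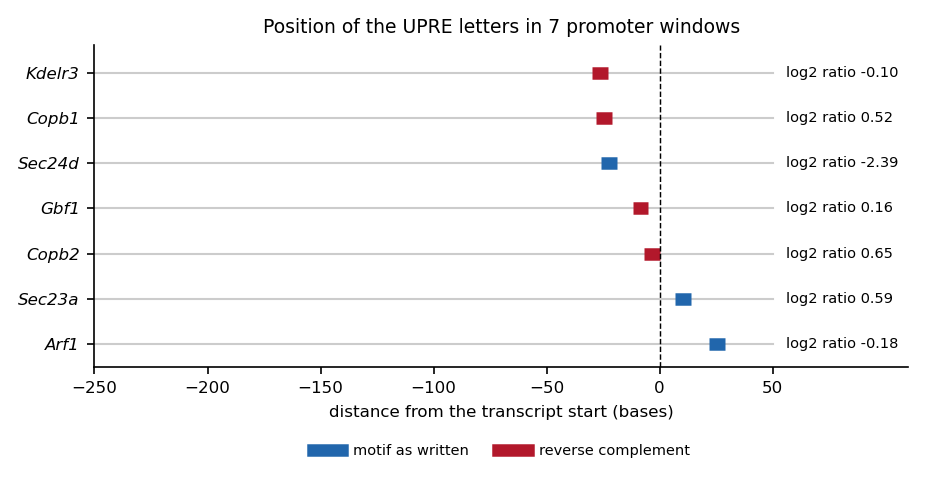
Position of the UPRE letters (horizontal axis, bases from the transcript start) in the promoter windows of 7 members, blue as written and red as the reverse complement, with each gene's log2 ratio, Mn-treated over untreated, at the right. The sites lie within 30 bases of the start shown (the Arf1 site is 84 bases before another start) while the ratios run from -2.39 to 0.65.

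Genes known to control or respond to ER load are given for comparison. Of 19 regulators and stress targets 1 passed 1.5-fold upwards (5.26%, against 21.6% of measured genes) and 2 downwards (10.5%, against 5.97%), with a median log2 ratio of 0.09 against 0.18 for all measured genes. Xbp1, the factor that binds the UPRE once its mRNA is spliced, had 3952 reads in the Mn-treated library and 4491 in the untreated library, a log2 ratio of -0.25. Atf6, a stress sensor released by proteolysis in the Golgi, had 1545 reads in the Mn-treated library and 1031 in the untreated library, a log2 ratio of 0.52. Mbtps2, the protease that completes this cleavage, was the higher gene at 0.73 from fractional counts. Atf6b had 1547 reads in the Mn-treated library and 1982 in the untreated library, a log2 ratio of -0.42. Atf6 and Atf6b thus had ratios of opposite sign. Mbtps1, Ern1, Eif2ak3 and Atf4 had log2 ratios of 0.21, 0.33, 0.20 and 0.04. Creb3 and Creb3l2, related factors that also act on secretory genes, had log2 ratios of 0.09 and 0.02, and Creb3l1 had 10 reads in the Mn-treated library and 12 in the untreated library.

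Among the targets, Sdf2l1 had 919 reads in the Mn-treated library and 1692 in the untreated library (log2 ratio -0.94), and Manf had 1078 in the Mn-treated library and 1817 in the untreated library (log2 ratio -0.82). Hspa5, the main ER chaperone, had 5019 reads in the Mn-treated library and 4027 in the untreated library (log2 ratio 0.25), and Hsp90b1 had a log2 ratio of 0.42. Pdia4, Hyou1, Dnajb9 and Ddit3 had log2 ratios of -0.17, -0.03, 0.09 and 0.20, that of Ddit3 from fractional counts. ER stress targets thus had ratios on both sides of 0.

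The wider list of 81 genes of the early secretory pathway, 80 of them measured, stood close to the 42 members. By 1.5-fold 11 were higher in the Mn-treated library (13.8%) and 2 lower (2.50%), against 21.6% and 5.97% of measured genes, and the median log2 ratio was 0.10. The highest of those with at least 100 reads was Trappc8, a subunit of a TRAPP tethering complex, with 120 reads in the Mn-treated library and 30 in the untreated library (log2 ratio 1.92, interval 1.35 to 2.56) from fractional counts. Arfgef1, an exchange factor for ARF GTPases, followed at 0.89, the signal recognition particle gene Srp54a at 0.83 and Arfgap3, an activator of ARF GTP hydrolysis, at 0.78, all from fractional counts.

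At the lower end, the p24 gene Tmed1 had 592 reads in the Mn-treated library and 1044 in the untreated library (log2 ratio -0.88, interval -1.03 to -0.74). Rab1b, a GTPase of traffic from ER to Golgi, had 2142 reads in the Mn-treated library and 3016 in the untreated library (log2 ratio -0.56). Yif1b, from fractional counts, and Arf5 were each at -0.43. The relatives of Tmed1 among the members, Tmed2, Tmed9 and Tmed10, were within 1.5-fold. Arf3 had 0 reads in both libraries.

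Circular RNAs, counted by reads that span the junction of a back-spliced exon, were sparse for these genes. The deposited table held 5 circular RNAs from 3 members, Copb1, Sec24a and Sec63, with 11 junction reads in the Mn-treated library and 13 in the untreated library. All circular RNAs together had 9433 junction reads in the Mn-treated library and 11665 in the untreated library. No single circular RNA reached 10 junction reads, and the host genes are named after their values were seen. Sec24a had 4 junction reads in the Mn-treated library and 0 in the untreated library, where a count of 0 allows up to 3 reads, so no difference was detectable at this depth.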

How the data were processed

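Total RNA of N2a cells was compared between 1 Mn-treated and 1 untreated library, assigned by their titles. The authors deposited an mRNA table with estimated counts and FPKM values. The counts were fractional for 13.3% of all 22287 genes, and for 2734 of the 11872 measured genes. The authors also deposited log2 fold changes, which are ratios of FPKM with 0 replaced by 0.001, and a table of whole circRNA junction read counts. The submitters' processing notes list StringTie, Bowtie2 and fastp 0.18.0 and the build mm9. How reads were counted, and on which annotation, is not given in the sources used here. Tables of lncRNAs and miRNAs were not used here.

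Estimated counts were rounded to whole numbers, and 0.5 was added before division by the column totals. A gene was measured if both libraries together gave it 20 reads or more. Intervals are exact conditional binomial (Clopper-Pearson, 95%), and shares have exact binomial intervals (scipy 1.17.1). The labels name no molecular identifiers, and PCR copies then count separately, so intervals cover counting error only. Alternatives were median-ratio and TMM scaling (edgeR 4.0.16), FPKM ratios, a pseudocount of 1, other filters, a 2-fold threshold and, chosen after the data were seen, whole counts only. The steps were tested on simulated data. Every member is accounted for, and the wider list is represented by its 4 highest and 4 lowest genes with at least 100 reads. Sec61a2 of that list was also named, after its value was seen. The members and lists were chosen with earlier results of these data known. RefSeq promoters are of GRCm38.p6, and RefSeq gene spans were used only for which genes overlap. One further marker of the list is not reported here.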

Additional observations from a re-analysis of the deposited data

How the results depend on the processing

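The median log2 ratio of the members was 0.13 with column totals, but -0.056 with median-ratio scaling and -0.050 with TMM scaling, which lower every gene by 0.18 on the log2 scale. The members at least 1.5-fold lower then numbered 3 with either scaling, against 1, and with median-ratio scaling 1343 of all measured genes did, against 709. Of the log2 ratios, 8 changed sign under both scalings (Sec24c, Sec22b, Sec61b, Sar1a, Copg1, Gbf1, Tmed2 and Gosr2). With whole counts only, 3 of 32 members were at least 1.5-fold higher (9.4%) and 0 lower. The share past 1.5-fold among all genes with whole counts was not computed, so these counts have no background beside them. That filter leaves out Sec24d, whose counts are fractional, so it cannot check the call of Sec24d. With counts as deposited the log2 ratio of Sec24d was -2.40, against -2.39 with rounded counts. At 2-fold, 1 member was higher. Under FPKM the share of Sec24c in its family was 2.66 points higher in the Mn-treated library, against -1.72 points by reads, and that of Sec24d was lower by more, at -11.4 points against -5.72. Reads per FPKM unit, Mn-treated over untreated, were 1.87-fold for Sec24d, 1.22-fold for Sec24a, 1.00-fold for Sec24b and 1.02-fold for Sec24c. FPKM shares differ from read shares through this unit. Why the unit differed between libraries was not tested. A pseudocount of 1 and unrounded counts left all 42 ratios within their counting intervals, and FPKM did so for 38. Median-ratio scaling moved 29 of the 42 outside these intervals, and TMM scaling moved 27. No paired analysis was possible because each condition had 1 library. Depth limits Kdelr3, Sec24a, Bet1 and Sec24d most, since each rests on few reads.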
